A study of Heterocephalus glaber with 2 samples.

Results

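DNA repair genes were followed in NSFs, the cultured skin fibroblasts of the naked mole-rat (NMR, *Heterocephalus glaber*), after knockdown of *β-catenin*. The set was named by 54 gene symbols, and 52 of them were found among the 37520 entries of the deposited expression files. The series holds 1 *shControl* library, from primary adult fibroblasts transduced with the empty lentiviral vector, and 1 *shβ-catenin* library, from the same kind of cells transduced with a single hairpin against *β-catenin*. Both cultures were selected with puromycin, replated and grown close to confluency before RNA was taken. The control carries no hairpin, 1 of the study's hairpins was sequenced, and each condition is 1 library, so no replicate error exists and no difference below was tested.

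Cells repair DNA by several routes that divide the work by the kind of lesion. Base excision repair removes single damaged bases, nucleotide excision repair cuts out bulky lesions, mismatch repair corrects copying errors, end joining and homologous recombination rejoin broken strands, and the Fanconi anaemia pathway unhooks crosslinks between strands. Several recombination, mismatch and Fanconi genes are transcribed mostly when cells replicate their DNA, whereas most excision repair genes are transcribed throughout the cell cycle. Repair is of interest in this animal because it is long-lived, and because oxidised guanine in DNA was one of the marks the study followed after *β-catenin* knockdown.

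The knockdown was visible in the RNA: *Ctnnb1*, which encodes β-catenin, stood at 530 FPKM under *shControl* and 69.0 FPKM under *shβ-catenin*, a 7.69-fold lower value. FPKM scales the fragments of a gene to its exon length and to the mapped fragments of its library, so levels can be compared between genes of a library. Of 10 fibroblast markers, *Vim*, *Col1a1*, *Col1a2*, *Col3a1*, *Pdgfra* and *Pdgfrb* were listed at 36.2 FPKM or more in both libraries, whereas *Thy1*, *Dcn* and *Lum* stayed at or below 2.42 FPKM. These markers differed more between the libraries than the repair genes did, since the median log2 fold-change of the 8 that averaged 1 FPKM or more was −0.59, 4 of them lower and 2 higher by more than 1.5-fold. *Col3a1*, a fibrillar collagen, stood at 1067 and 542 FPKM and *Pdgfrb*, a growth factor receptor, at 64.5 and 36.8 FPKM, whereas *Dcn*, decorin, stood at 0.316 and 2.42 FPKM, *Thy1* at 0.303 and 1.39 FPKM and *Fap* at 3.69 and 7.93 FPKM. The summed level of 6 leukocyte markers was 55.1 FPKM under *shControl* and 159 FPKM under *shβ-catenin*, nearly all of it from *Lyz* and *Cd68*, while the defining markers *Ptprc* and *Cd3e* were listed at 0. The summed level of 5 endothelial markers was 0.342 and 2.42 FPKM, most of it from *Pecam1*, at 0.275 and 2.08 FPKM. The others were at up to 0.141 FPKM, all higher under *shβ-catenin* except *Tek*, which was at 0 in both libraries. For 5 keratinocyte markers the sum was 17.6 and 14.9 FPKM, nearly all from *Dsp*, with *Krt5* and *Krt1* at 0. The part of these marker differences in the values of repair genes was not tested.

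Fewer repair transcripts were on the higher side than on the lower side in *shβ-catenin* cells. Of the 52 genes, 50 averaged at least 1 FPKM, all but *Brca2* and *Blm*, and 35 of these 50 were lower and 15 higher. Their median log2 fold-change, computed as log2 of (*shβ-catenin* + 0.1) / (*shControl* + 0.1), was −0.16, with a range from −1.26 to 0.41. Over all 13097 genes that passed the same filter the median was −0.01, and 51.3% were lower. The differences were small, since 43 of the 50 genes lay within 1.5-fold and 26 within 1.2-fold. When the libraries were scaled to the median ratio of reference genes, the split was 29 lower and 21 higher.

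By more than 1.5-fold, 7 repair genes were lower, namely *Xrcc4*, *Exo1*, *Rad51c*, *Ung*, *Ddb1*, *Fanci* and *Wrn*, and 0 were higher. That is 14.0% of the 50 genes on the lower side, beside a background of 7.02% of all genes lower and 8.22% higher by more than 1.5-fold. By more than 2-fold, 1 repair gene was lower (*Xrcc4*) and 0 were higher, against 2.05% and 3.27% of all genes. None of the 50 passed 4-fold, the threshold of the study's own methods, which 0.206% of all genes passed on the lower side and 0.68% on the higher side. The count of 7 depended on the settings. It was 4 with reference gene scaling and 2 with a pseudocount of 1 FPKM, under which *Xrcc4* and *Ddb1* remained.

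Low genes scatter more, so the level of a gene matters for its fold-change. Of 2408 genes with a mean of 1 to 3 FPKM, 12.3% were lower and 20.5% higher by more than 1.5-fold, whereas of 3041 genes of at least 30 FPKM these shares were 4.80% and 3.91%. Between these ranges 7.11% were lower and 8.33% higher at 3 to 10 FPKM, and 5.42% lower and 3.91% higher at 10 to 30 FPKM. Among repair genes, 2 of 11 at 1 to 3 FPKM were lower by that much (*Xrcc4* and *Exo1*), 4 of 19 at 3 to 10 FPKM (*Ung*, *Rad51c*, *Wrn* and *Fanci*), 0 of 15 at 10 to 30 FPKM and 1 of 5 above (*Ddb1*). From the lowest range to the highest, 7 of 11, 12 of 19, 12 of 15 and 4 of 5 repair genes were below 0, beside 1052 of 2408, 1830 of 3756, 2106 of 3892 and 1737 of 3041 of all genes, so that the share below 0 was greater in the higher ranges for all genes too.

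**Figure D1:**
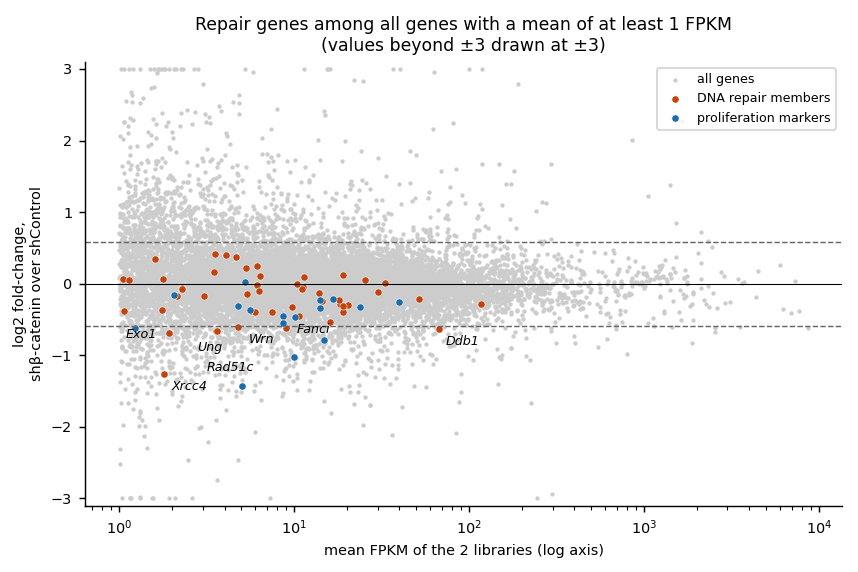
Log2 fold-change (*shβ-catenin* over *shControl*) against the mean FPKM of both libraries (log axis) for all 13097 genes averaging at least 1 FPKM (grey), the 50 DNA repair genes (orange) and 16 proliferation markers (blue), with dashed lines at 1.5-fold. The repair genes lie between −1.26 and 0.41, 7 of them below the lower dashed line and 0 above the upper one.

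Repair genes spanned a 237-fold range of levels in *shControl* cells, from *Brca2* at 0.545 FPKM to *Apex1* at 129 FPKM. Their median was 6.32 FPKM under *shControl* and 6.08 FPKM under *shβ-catenin*, below the medians of 11.1 and 10.9 FPKM over all genes that passed the filter. In *shControl* cells 22 of the 52 genes were at 10 FPKM or more, 17 between 3 and 10 FPKM and 13 under 3 FPKM. The 5 genes averaging at least 30 FPKM were *Apex1*, *Ddb1*, *Ercc1*, *Xrcc6* and *Parp1*, which act in excision repair or at broken ends. The lowest were *Brca2*, *Blm*, *Neil2*, *Fancc* and *Rad54l*. The order of levels was nearly the same in both libraries (Spearman rho 0.97 over 52 genes, a description of levels in 1 library each).

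**Figure D2:**
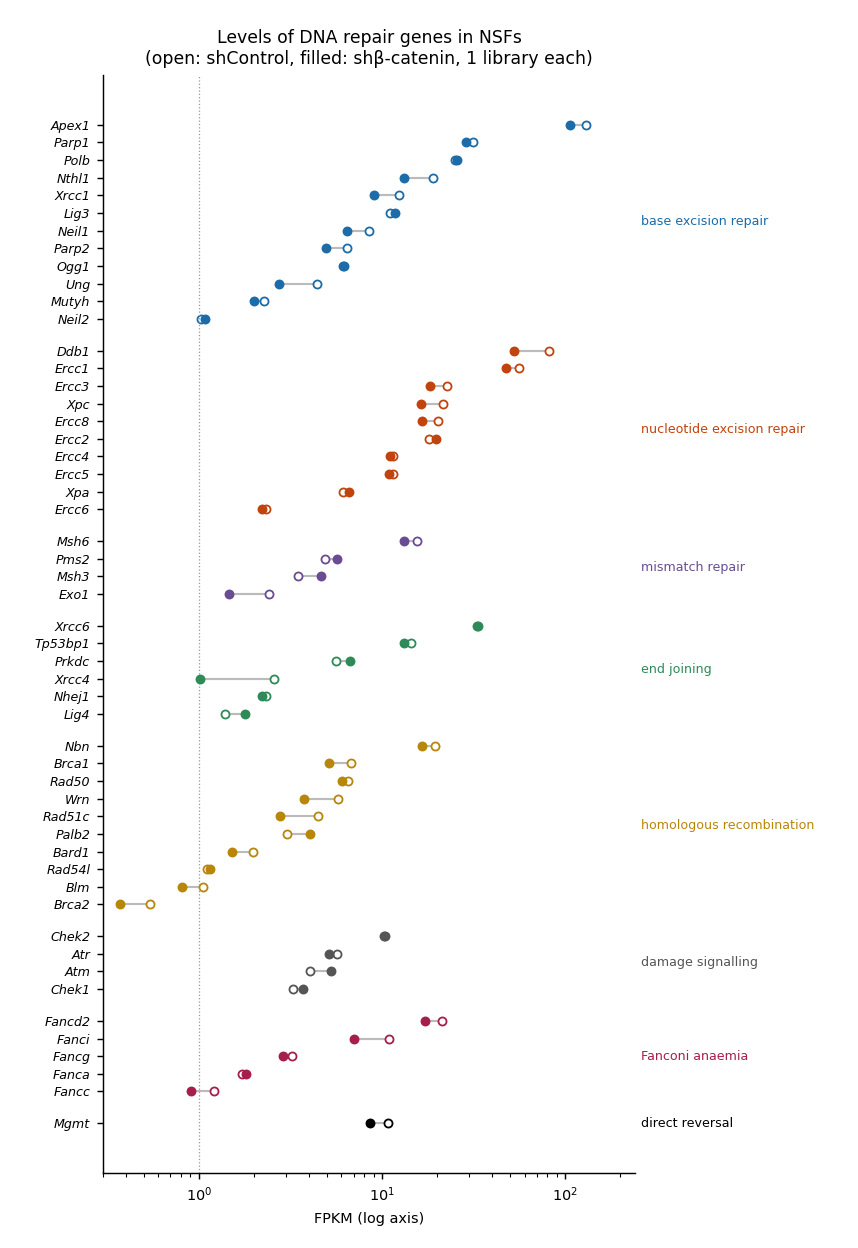
FPKM (log axis) of the 52 DNA repair genes by pathway, with open circles for the *shControl* and filled circles for the *shβ-catenin* library. Levels run from *Brca2* (0.545 and 0.374 FPKM) to *Apex1* (129 and 106 FPKM), and the widest gap between the libraries is that of *Xrcc4* (2.58 and 1.02 FPKM).

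In base excision repair, 9 of 12 genes were lower and 3 higher in *shβ-catenin* cells, with a median log2 fold-change of −0.23 (8 lower and 4 higher with reference gene scaling). The DNA glycosylases, which release damaged bases, differed in how far apart the libraries were. *Ung*, which removes uracil, was listed at 4.39 FPKM under *shControl* and 2.73 FPKM under *shβ-catenin*, a log2 fold-change of −0.67 and the lowest of the pathway. *Nthl1*, which removes oxidised pyrimidines, was listed at 18.97 and 13.1 FPKM (log2 fold-change −0.53), just inside the 1.5-fold limit. *Neil1*, another glycosylase for oxidised bases, was listed at 8.51 and 6.45 FPKM (−0.40).

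*Ogg1*, *Mutyh* and *Neil2* were closer to even than the glycosylases above. *Ogg1*, which removes 8-oxoguanine, was listed at 6.17 FPKM under *shControl* and 6.10 FPKM under *shβ-catenin*, a 1.01-fold difference. *Mutyh*, which removes adenine paired with 8-oxoguanine, was listed at 2.26 and 1.99 FPKM. *Neil2*, a further glycosylase of oxidised bases, was low in both libraries, at 1.03 and 1.08 FPKM.

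The later steps of base excision repair include the most abundant transcript of the set. *Apex1*, the endonuclease that cuts the strand at the site left without a base, was listed at 129 and 106 FPKM, above 94.9% of all filtered genes in *shControl* cells, with a log2 fold-change of −0.28. *Polb*, the polymerase that fills the gap, was listed at 24.9 and 25.7 FPKM. The ligase *Lig3* was slightly higher in *shβ-catenin* cells, at 11.0 and 11.8 FPKM, whereas its scaffold partner *Xrcc1* was lower, at 12.4 and 9.00 FPKM (−0.46).

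The poly(ADP-ribose) polymerases, which sense strand breaks, were both on the lower side. *Parp1* was listed at 31.3 FPKM under *shControl* and 28.8 FPKM under *shβ-catenin*, and *Parp2* at 6.46 and 4.92 FPKM. The *Parp2* ratio of *shβ-catenin* to *shControl* was 0.762.

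In nucleotide excision repair, 8 of 10 genes were lower and 2 higher, with a median log2 fold-change of −0.15. With reference gene scaling 5 were lower and 5 higher. *Ddb1* and *Xpc*, members that act in damage recognition, were on the lower side. *Ddb1*, the adaptor of the CUL4 ubiquitin ligases and the partner of *Ddb2* in recognising UV lesions, was listed at 81.3 FPKM under *shControl* and 52.5 FPKM under *shβ-catenin*, a log2 fold-change of −0.63 (−0.55 with reference gene scaling). *Xpc*, which finds distorted DNA across the genome, was listed at 21.5 and 16.3 FPKM (−0.40). *Ddb1* was the only one of the 5 most abundant repair genes past 1.5-fold.

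The helicases of TFIIH, the factor that opens the DNA around the lesion, differed in opposite directions. *Ercc3* was listed at 22.5 and 18.3 FPKM (−0.30), and *Ercc2* at 18.1 and 19.8 FPKM (0.13). *Xpa*, which checks the damaged strand, was listed at 6.14 and 6.63 FPKM. All 3 lay within 1.3-fold of even.

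The nucleases that cut on each side of the lesion were within 1.2-fold. *Ercc1*, the non-catalytic partner of the upstream nuclease, was listed at 55.6 and 47.7 FPKM, and its catalytic partner *Ercc4* at 11.5 and 11.1 FPKM. *Ercc5*, the downstream nuclease, was listed at 11.4 and 10.9 FPKM. Of the genes that couple repair to transcription, *Ercc8* was listed at 20.1 and 16.5 FPKM and *Ercc6* at 2.33 and 2.22 FPKM.

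Mismatch repair was split, with 2 genes higher and 2 lower and a median log2 fold-change of −0.01 (0.03 with upper quartile scaling). *Msh6*, which recognises single mismatches, was listed at 15.5 FPKM under *shControl* and 13.2 FPKM under *shβ-catenin*. *Msh3*, which recognises longer loops, was higher, at 3.50 and 4.64 FPKM (0.40). *Pms2*, an endonuclease that nicks the faulty strand, was listed at 4.87 and 5.68 FPKM (0.22). *Exo1*, the exonuclease that removes the faulty strand and also resects broken ends, was lower, at 2.41 and 1.46 FPKM (−0.68), and with a pseudocount of 1 FPKM its log2 fold-change was −0.47.

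End joining held the largest difference of the set and otherwise small ones, 3 genes higher and 3 lower, with a median of −0.03 (0.05 with reference gene scaling). *Xrcc4*, the scaffold of the ligase that seals broken ends, was listed at 2.58 FPKM under *shControl* and 1.02 FPKM under *shβ-catenin*, a 2.53-fold lower value and a log2 fold-change of −1.26. The ligase itself, *Lig4*, was on the other side, at 1.39 and 1.79 FPKM (0.34). *Nhej1*, a factor related to *Xrcc4* that helps to align the ends, was listed at 2.34 and 2.23 FPKM. Of these ligation genes only *Xrcc4* was past 1.5-fold, and no counting interval could be placed on its low values. The counting interval of the *Lig4* ratio (0.882 to 1.88, or 0.989 to 1.68 if the fragments were doubled) included 1, and *Nhej1* was near even. Whether *Xrcc4* differed from its partners was not tested.

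The genes that act first at broken ends were closer to even. *Xrcc6*, a subunit of the Ku ring, was listed at 33.1 and 33.4 FPKM, a 1.01-fold difference. *Prkdc*, the catalytic subunit of DNA-PK, was listed at 5.62 and 6.72 FPKM (0.25). *Tp53bp1*, which favours end joining over resection, was listed at 14.4 and 13.2 FPKM. The symbol *Xrcc5*, for the other Ku subunit, was not found, but the entry LOC101719341 carries the gene number that RefSeq gives to *Xrcc5*, and it was listed at 14.1 and 10.5 FPKM (−0.42). This entry lies outside the 52 genes counted here.

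**Figure D3:**
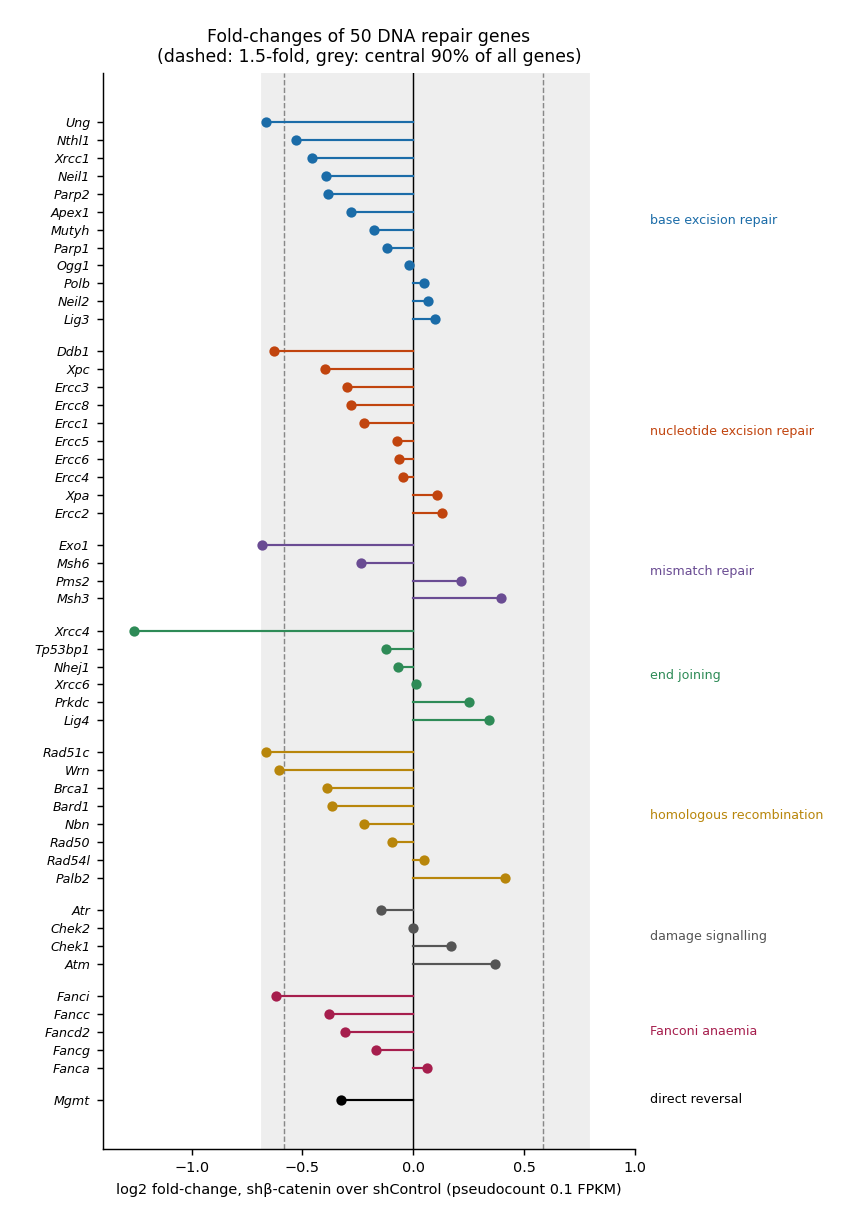
Log2 fold-change (*shβ-catenin* over *shControl*) of the 50 DNA repair genes averaging at least 1 FPKM, by pathway, with dashed lines at 1.5-fold and a grey band for the central 90% of all 13097 genes. Bars to the left outnumber bars to the right by 35 to 15, and *Xrcc4* (−1.26) is the only gene left of the grey band.

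In homologous recombination, 8 of 10 genes passed the filter, 6 lower and 2 higher, with a median log2 fold-change of −0.29. *Brca1*, which promotes resection of broken ends, was listed at 6.79 FPKM under *shControl* and 5.15 FPKM under *shβ-catenin* (−0.39). *Bard1*, its obligate partner, was listed at 1.98 and 1.52 FPKM (−0.37), so that the partners differed by nearly the same fold. *Palb2*, which bridges *Brca1* and *Brca2*, had the highest log2 fold-change of the 50 genes, at 3.02 and 4.05 FPKM (0.41). *Brca2*, a mediator of strand exchange, was the lowest gene of the set, at 0.545 and 0.374 FPKM.

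The factors acting on strands and junctions were mostly lower. *Rad51c*, a factor of strand exchange, was listed at 4.49 and 2.79 FPKM (−0.67), and *Wrn*, a RecQ helicase, at 5.77 and 3.75 FPKM (−0.61). *Blm*, the other RecQ helicase of the set, was listed at 1.05 and 0.808 FPKM, and *Rad54l*, a motor protein of strand exchange, at 1.11 and 1.15 FPKM. *Rad51c* was past 1.5-fold under every scaling tried, though not with a pseudocount of 1 FPKM (−0.53), and the counting interval of its ratio ran from 0.310 to 1.199 (0.386 to 0.983 if the fragments were doubled). *Wrn* was at −0.57 with upper quartile scaling and −0.53 with reference gene scaling, short of 1.5-fold.

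The complex that first holds a broken end together was close to even. *Rad50* was listed at 6.49 and 6.07 FPKM and *Nbn*, which carries the signal to *Atm*, at 19.4 and 16.6 FPKM (−0.22). The nuclease subunit was not found as *Mre11a*. It stands in the files as *Mre11*, its current symbol, at 5.59 and 5.44 FPKM, and was not counted either. With *Mre11* and the *Xrcc5* entry added, a choice made after the data were seen, 37 genes were lower and 15 higher.

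The kinases that signal damage had a median above 0, 2 higher and 2 lower, at 0.08 (−0.07 for the genes averaging at least 5 FPKM). *Atm*, activated by broken ends, was listed at 4.05 FPKM under *shControl* and 5.25 FPKM under *shβ-catenin* (0.37), and *Atr*, activated by single-stranded DNA, at 5.67 and 5.11 FPKM (−0.15). Their effector kinases were even or slightly higher, *Chek2* at 10.3 FPKM in both libraries and *Chek1* at 3.27 and 3.68 FPKM (0.17). No gene of this group was past 1.5-fold.

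In the Fanconi anaemia pathway, 4 of 5 genes were lower and 1 higher, with a median of −0.31. The pair that is ubiquitinated at crosslinks was on the lower side, *Fancd2* at 21.2 and 17.1 FPKM (−0.31) and *Fanci* at 10.9 and 7.08 FPKM (−0.62). *Fanci* fell short of 1.5-fold with upper quartile scaling (−0.5827) and reference gene scaling (−0.54). The subunits of the core complex, which is the ubiquitin ligase for this pair, were low in both libraries, *Fanca* at 1.73 and 1.81 FPKM, *Fancc* at 1.21 and 0.907 FPKM and *Fancg* at 3.23 and 2.87 FPKM.

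Direct reversal was represented by *Mgmt*, which takes methyl groups off guanine without cutting the strand. It was listed at 10.8 FPKM under *shControl* and 8.63 FPKM under *shβ-catenin*, a log2 fold-change of −0.32.

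The ratio between partners of a complex or step can be read within each library, since it does not depend on scaling between the libraries. The pairs were chosen after the values had been seen. The *Xrcc4* to *Lig4* ratio of FPKM was 1.85 under *shControl* and 0.568 under *shβ-catenin*, a 3.26-fold difference that reversed the order of the pair. The order also reversed for *Xrcc1* over *Lig3* (1.12 and 0.763), for *Ercc3* over *Ercc2* (1.24 and 0.924) and for *Atm* over *Atr* (0.713 and 1.03). Whether a ratio crosses 1 depends on the exon lengths behind FPKM, so these reversals are less certain than the changes in ratio. The *Msh6* to *Msh3* ratio was 4.44 under *shControl* and 2.84 under *shβ-catenin*, with *Msh6* the higher in both. The *Palb2* to *Brca2* ratio was 5.54 and 10.8, with *Brca2* under 1 FPKM in both libraries, and the *Nthl1* to *Ogg1* ratio was 3.07 and 2.15.

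Some other pairs were closer to even. The *Brca1* to *Bard1* ratio was 3.42 under *shControl* and 3.40 under *shβ-catenin*, the *Nbn* to *Rad50* ratio 2.99 and 2.74, and the *Ercc1* to *Ercc4* ratio 4.84 and 4.29. The ratio of *Ddb1* to its partner *Ddb2* was 1.53 and 1.60, as both genes were lower by a like fold. FPKM depends on the exon models used, which the sources do not describe, so a ratio between genes is less certain than the change of that ratio between libraries.

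**Figure D4:**
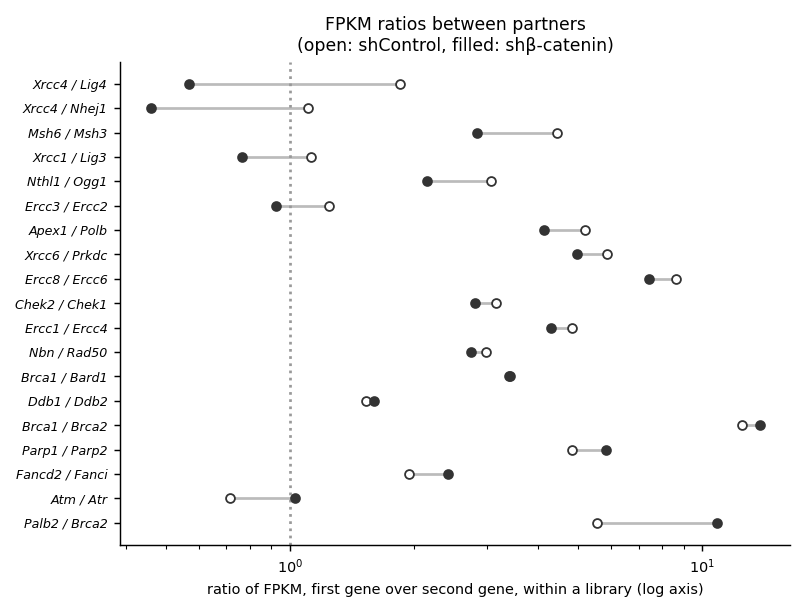
Ratio of FPKM between 19 pairs of partners (first gene over second gene, log axis), with open circles for the *shControl* and filled circles for the *shβ-catenin* library. The longest line is that of *Xrcc4* over *Lig4*, from 1.85 to 0.568, and *Brca1* over *Bard1* (3.42 and 3.40) shows no visible gap.

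Of the 54 symbols, 12 name genes whose transcripts are known to be highest in replicating cells, and 10 of these passed the filter (*Ung*, *Msh6*, *Exo1*, *Chek1*, *Brca1*, *Bard1*, *Rad54l*, *Fanca*, *Fancd2* and *Fanci*). Their median log2 fold-change was −0.34, with 7 lower, 3 higher and 3 lower by more than 1.5-fold (*Exo1*, *Ung* and *Fanci*). The other 40 genes had a median of −0.12, with 28 lower, 12 higher and 4 lower by more than 1.5-fold. Thus 70.0% of either group was lower. By more than 1.5-fold, no gene of either group was higher, whereas over all genes 7.02% were lower and 8.22% higher by that much. The difference between the groups was not tested.

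Proliferation markers were lower as well. Of 19 markers listed, 16 were found and passed the filter, 15 lower and 1 higher, with a median of −0.36 and a summed level of 211 FPKM under *shControl* and 158 FPKM under *shβ-catenin*. None of the 16 was at 0. *Aurkb*, a mitotic kinase, was listed at 7.36 and 2.68 FPKM, *Tyms*, thymidylate synthase, at 13.4 and 6.53 FPKM, *Rrm2*, a subunit of ribonucleotide reductase, at 18.7 and 10.8 FPKM, and *Cdk1*, the kinase of mitotic entry, at 1.52 and 0.957 FPKM. The part of proliferation in the repair values was not tested, and in bulk RNA fewer replicating cells and less RNA per cell cannot be told apart.

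Genes of repair outside the 54 symbols had a median nearer 0. Of 98 such genes listed, 95 were found and 86 passed the filter, 50 lower and 36 higher, with a median of −0.05 (0.02 with reference gene scaling). By more than 1.5-fold, 5 were lower (5.81%) and 1 higher, beside 7.02% of all genes lower and 8.22% higher. The 1 higher gene was *Aptx*, which removes blocked strand ends, at 2.49 FPKM under *shControl* and 4.16 FPKM under *shβ-catenin*. The lower genes included *Lig1*, the ligase of replication and repair patches, at 11.4 and 7.34 FPKM, and *Ddb2*, the partner of *Ddb1*, at 53.2 and 32.9 FPKM.

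The other genes of the Fanconi pathway were mostly on the lower side like the members. Of 12 found, all 11 that passed the filter were below 0 in the values as deposited, with a median of −0.24. With the members 15 of 16 were lower, beside 51.3% of all genes. The gene that did not pass, *Fancb*, was slightly higher under *shβ-catenin*, at 0.512 and 0.538 FPKM. With reference gene scaling 7 of the 11 were below 0 and the median was −0.16. *Ube2t*, the ubiquitin-conjugating enzyme that acts on *Fancd2* and *Fanci*, was listed at 3.85 FPKM under *shControl* and 1.68 FPKM under *shβ-catenin*, a log2 fold-change of −1.15. *Faap20*, a subunit of the core complex, was listed at 34.3 and 26.2 FPKM, and *Fancl*, its ubiquitin ligase subunit, at 3.17 and 2.47 FPKM. Except for *Ube2t* none of these other Fanconi genes was past 1.5-fold, beside 7.02% of all genes lower by that much.

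The other genes of excision repair and recombination were close to even. In base excision repair 7 were higher and 6 lower (median 0.0016), and in nucleotide excision repair 8 were higher and 9 lower (median −0.03). In homologous recombination 9 were higher and 9 lower (median −0.0040). With reference gene scaling the medians were 0.08, 0.04 and 0.07. The recombination genes included *Brcc3*, a deubiquitinase of the *Brca1* complex, at 26.4 FPKM under *shControl* and 17.1 FPKM under *shβ-catenin*, and *Rad52*, an annealing protein, at 4.20 and 5.56 FPKM. The medians of the members in these pathways were −0.23, −0.15 and −0.29, and the difference between members and other genes was not tested.

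**Figure D5:**
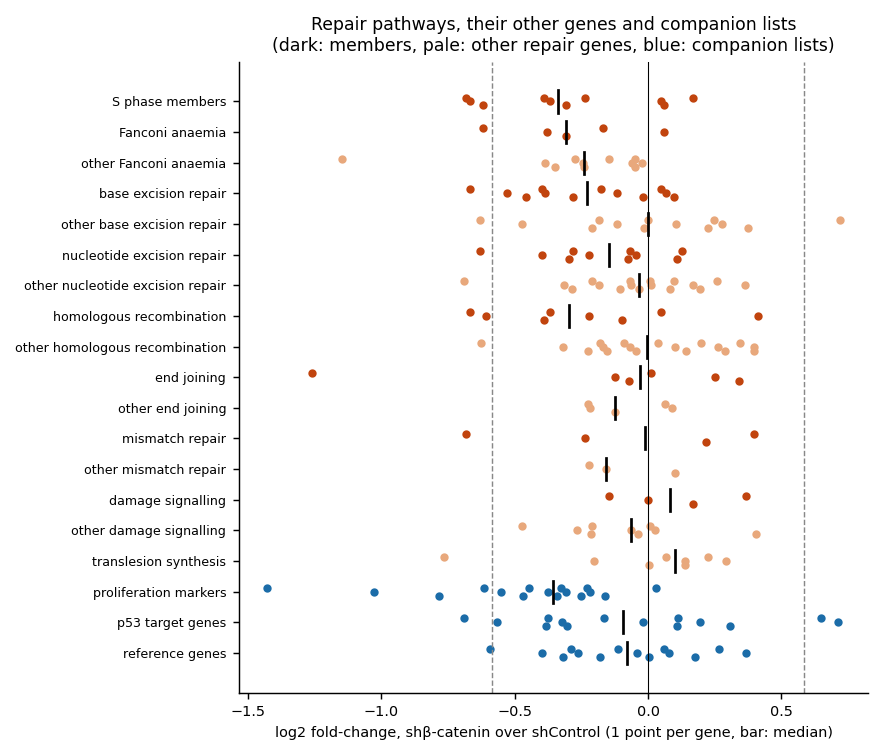
Log2 fold-change (*shβ-catenin* over *shControl*) of each gene averaging at least 1 FPKM, by list, with black bars for medians and dashed lines at 1.5-fold. Among the lists drawn, the medians farthest to the left are those of the proliferation markers (−0.36), the S phase members (−0.34) and the Fanconi anaemia members (−0.31).

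Counting error could be placed on 7 of the 52 genes. Read counts are not given in the files, but equal numbers of fragments give a fixed FPKM ratio, here 1.202 (*shβ-catenin* over *shControl*), and the smallest whole numbers that give a gene's ratio were sought up to a total of 150. They were 29 under *shControl* and 15 under *shβ-catenin* for *Rad51c*, which allows an exact Clopper-Pearson 95% interval of its FPKM ratio (0.622) from 0.310 to 1.199. For *Parp2* they were 71 and 45, with an interval from 0.513 to 1.12. Both intervals included a ratio of 1.

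The other 5 intervals also included a ratio of 1. They ran from 0.435 to 1.33 for *Blm* (36 and 23 fragments), from 0.882 to 1.88 for *Lig4* (57 and 61), from 0.588 to 1.53 for *Nhej1* (43 and 34), from 0.702 to 1.66 for *Xpa* (49 and 44) and from 0.325 to 3.32 for *Neil2* (8 and 7). The true numbers may be multiples of these. Doubled, to 58 and 30, the interval of *Rad51c* ran from 0.386 to 0.983, and that of *Parp2* from 0.579 to 0.9994. The intervals cover counting error only, not differences between cultures, and among the 7 genes past 1.5-fold only *Rad51c* could be given one.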

How the data were processed

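RNA of 1 *shControl* and 1 *shβ-catenin* culture of NSFs was sequenced by the authors from stranded mRNA libraries in paired ends and mapped to an NMR reference genome. Per the labels they used TopHat2 2.0.13, Bowtie2 2.2.3, SAMtools 0.1.19 and Cufflinks 2.2.1, and they deposited FPKM values per gene. The gene annotation, the read totals and filters are not given in the sources used here. FPKM were used as deposited. Fold-changes took a pseudocount of 0.1 FPKM, which understates changes of low genes, and medians and counts used genes averaging at least 1 FPKM. All 54 members are named. Of other lists, up to 4 genes with the largest differences could be named. The members and lists were chosen with earlier results of these data known.

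Whole fragments were matched within the rounding of the printed digits. Among genes with a mean of 1 to 3 FPKM 44.9% had a match (1.97% with the depth factor shifted by 1.4%), and at 3 to 10 FPKM 16.6% (1.44%). All 52 symbols found stand in the RefSeq table of names. Promoters and proteins were not analysed here. Some genes of the other lists are not reported here by name. Scripts were tested on simulated data. Alternatives were pseudocounts, scalings, filters and thresholds. Computation used Python 3.11.15 with pandas 2.3.3, numpy 2.4.6, scipy 1.17.1 and, for plots, matplotlib 3.10.9.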

Additional observations from a re-analysis of the deposited data

How the results depend on the processing

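The median log2 fold-change of the repair genes stayed below 0 under every alternative, from −0.22 (average of at least 5 FPKM) to −0.08 (reference gene scaling), and no alternative put a repair gene more than 1.5-fold higher. The number lower by more than 1.5-fold was 7. It became 2 with a pseudocount of 1 FPKM, 2 at an average of at least 5 FPKM (where 7 genes were above 0), 4 with reference gene scaling, 1 at 2-fold and 0 at 4-fold. The median of the other repair genes was 0.021 with reference gene scaling. Medians near 0 changed sign: mismatch repair was at 0.000069 with median ratio, 0.03 with upper quartile and 0.07 with reference gene scaling, end joining at 0.0064 and 0.05 with the last 2 and 0.01 at an average of at least 5 FPKM, where damage signalling was at −0.07. For the 7 genes past 1.5-fold, the 5 alternatives that can change a gene's value (other pseudocounts and scalings) gave 35 values, of which 25 stayed past 1.5-fold and 10 did not. With 1 library per condition no library could be left out, and no paired analysis was possible because each group holds 1 sample. Read depth is unknown beyond the ratio of the libraries, so counting error limits low genes such as *Brca2*, *Blm* and *Neil2* by an amount known only for the 7 genes with intervals.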

Other observations

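Translesion synthesis, in which specialised polymerases copy past lesions, had more genes above 0 than below. Of 8 genes, 6 had higher and 2 lower values in the *shβ-catenin* library, with a median log2 fold-change of 0.10. Over all 13097 genes 6372 were higher. None of the 6 was higher by more than 1.5-fold. *Poli*, a translesion polymerase, was listed at 5.78 FPKM under *shControl* and 7.11 FPKM under *shβ-catenin*. *Rev3l*, the catalytic subunit of polymerase zeta, was the only 1 of the 8 past 1.5-fold, at 5.18 and 3.005 FPKM (−0.77). Of all genes 7.02% were lower by that much.

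Targets of p53, which are induced by DNA damage in many cells, were on both sides. Of 14 genes, 6 were higher and 8 lower, with a median of −0.09, and past 1.5-fold were 2 on the higher and 1 on the lower side, beside 8.22% and 7.02% of all genes. *Btg2*, an antiproliferative gene, was listed at 1.11 FPKM under *shControl* and 1.89 FPKM under *shβ-catenin*, and *Plk2*, a stress-induced kinase, at 10.9 and 17.1 FPKM. *Ddb2*, a p53 target that is also a sensor of UV lesions, was lower, at 53.2 and 32.9 FPKM, and *Ccng1*, cyclin G, was listed at 156 and 105 FPKM. *Cdkn1a*, the gene of p21, named after its values were seen, was listed at 141 and 113 FPKM. These are RNA levels, whereas the study stained p21 protein and reported that it accumulated in nuclei after *β-catenin* knockdown.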
